A study of Mus musculus with 6 samples.

Results

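The genes described here encode proteins that bind 5-methylcytosine (m5C) in RNA or oxidize it: the readers Alyref and Ybx1, the dioxygenases Tet1, Tet2 and Tet3, and the AlkB-family dioxygenase Alkbh1. They were taken by symbol: each reference cytosine assigned to one of these 6 genes in the deposited RNA bisulfite sequencing lists was kept, which gave 3275 of the 5240657 cytosines listed in at least 1 library and 6 of 15994 genes. The material was wild-type C57BL/6 mouse cortical neurons, taken at E16.5, labelled as pooled male and female, and grown in culture. The cultures were silenced overnight with 1 µM tetrodotoxin (a sodium channel blocker) and 100 µM DL-AP5 (an NMDA receptor antagonist) after 6 days, so that all groups carry the silencing. On day 7 potassium chloride (KCl, 55 mM) was added to depolarize them, and poly(A)-selected RNA was taken after 2 h or 6 h, with 2 libraries per time. The libraries called KCl 0 h came from silenced cultures without depolarization and are the control of both later times. Bisulfite turns unmethylated cytosine into uracil, which is read as T, so that a C in a read marks an unconverted base. These lists hold the cytosines with at least 10 reads and at least 1 unconverted read, and coverage and unconverted reads are the measurements used.

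m5C is placed on mRNA and tRNA by the NSUN family and by TRDMT1. ALYREF, an adaptor of the TREX mRNA export complex, binds methylated mRNA in the nucleus and hands it to the export receptor NXF1. YBX1, a cold-shock domain protein of cytoplasmic mRNPs, binds m5C in the cytoplasm and is known for stabilizing its targets. The TET proteins are iron- and 2-oxoglutarate-dependent dioxygenases, best known for oxidizing 5-methylcytosine in DNA to 5-hydroxymethylcytosine, a base abundant in neurons, and they can act on RNA as well. ALKBH1 carries out a related oxidation on tRNA, in particular in mitochondria.

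The cytosines of the 6 genes differed widely in how they were listed. Ybx1 (GRCm38, chr4:119277981-119294604, minus strand) had 511 listed cytosines, of which 264 appeared in all 6 libraries. Of the 574 cytosines in its annotated exons 69.2% were listed, and a further 114 listed cytosines lay in introns. Alyref (chr11:120592121-120598365) had 197 listed cytosines, with 4 in all 6 libraries. Tet3 (chr6:83362373-83459084) had 1610, with 1 in all 6 libraries, and 935 of them were coding and 661 in the 3′ UTR. None of the 393 cytosines of Tet1 (chr10:62804570-62908996), the 342 of Tet2 (chr3:133463679-133545139) or the 222 of Alkbh1 (chr12:87425840-87444017) was listed in all 6 libraries. Each of these genes lies on the minus strand, and no listed cytosine was shared with another gene. An annotated processed pseudogene of Ybx1 exists, and how reads were divided between it and Ybx1 was not tested.

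**Figure D1:**
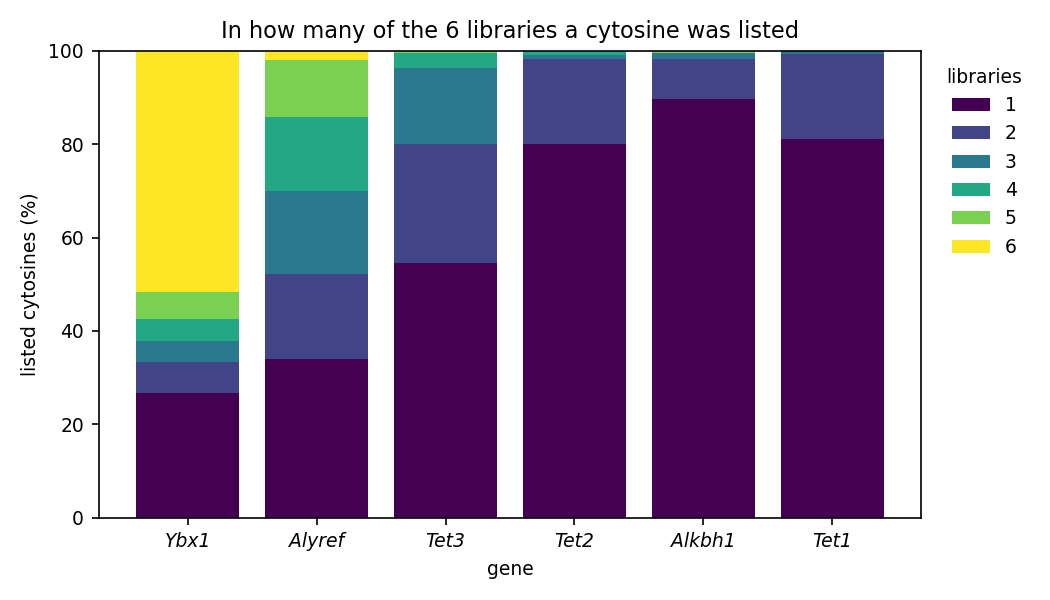
Share of the listed cytosines of each gene (%, bars stacked to 100) by the number of libraries, of 6, in which the cytosine was listed. Of the Ybx1 cytosines 51.7% were listed in all 6 libraries, and 80.1% to 89.6% of the Tet2, Tet1 and Alkbh1 cytosines in a single library.

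Many cytosines were listed in unbroken runs, in which every cytosine of a stretch carried an unconverted read in 1 library. These stretches are shown because they make up over 50% of the listed exonic cytosines of Tet1 in 4 of the 6 libraries and of Tet3 in 5, and because they show what a listed position is in these files. Each line gives the first 30 bases, 5′ to 3′ on the transcript strand, of the longest run of that gene, from the GRCm38 reference, and capitals mark the cytosines listed in the library named below.
Alyref, 3′ UTR, chr11:120594833-120594862: CaCCagCtaaaCaaCtgagCaaatCCaCaC
Tet1, coding, chr10:62812890-62812919: CtaCgCCgatCCttCCtttggtggCgtggC
Tet2, coding, chr3:133469541-133469570: CtgCCtatgtaCatCatCgCCCCtgaggat
Tet3, coding, chr6:83402962-83402991: CttCCCggCCCaCCttCggtgCCCattCaa
Alkbh1, coding, chr12:87429111-87429140: CgagtCCttCCaCatCCtgatggggagtgC
Every cytosine of the 30 bases was listed in each of these stretches, from 9 of 9 in Alkbh1 to 14 of 14 in Tet3.

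The Tet3 run spanned 271 bases and 96 cytosines in the first 6 h library, at 77 to 505 reads, and 88 of the 96 had exactly 1 unconverted read. In the second 6 h library 9 of the same cytosines were listed. The second 2 h library listed 58 of them, the first 0 h library 19, the first 2 h library 4 and the second 0 h library 1. The Alkbh1 run held 47 cytosines in the first 2 h library, 44 of them with 1 unconverted read, and the second 2 h library listed 1 of them. The Tet1 run held 39 cytosines in the first 6 h library, each with 2 or 3 unconverted reads at 10 to 43 reads, which gave levels of at least 4.76%. None of these 39 was listed in the second 6 h library. The Tet2 run held 25 cytosines in the second 2 h library, all with 1 unconverted read, and 1 of them was listed in the first. The Alyref run held 27 cytosines in the second 0 h library, and its cytosines were shared more widely, with 27 listed in the second 6 h library, 21 in the second 2 h library, 19 in the first 6 h library, 3 in the first 0 h library and 1 in the first 2 h library. Whether the unconverted bases of a run sat on the same read cannot be seen from counts per position.

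Runs of at least 5 neighbouring cytosines held 80.2%, 42.0%, 78.8%, 0%, 81.8% and 71.1% of the listed exonic Tet1 cytosines in the 6 libraries, in the order 0 h, 2 h and 6 h with both replicates of each. For Tet3 the shares were 72.0%, 85.8%, 34.9%, 64.4%, 62.9% and 68.5%. For Ybx1, the most deeply covered of the genes, they were 86.5% to 92.2%, with a longest run of 82 cytosines in each library. Alkbh1 had no such run in 4 of the 6 libraries, and Tet2 none in the 0 h libraries. The bases listed in both replicates of a time point were few in the dioxygenase genes. At 6 h, 0 cytosines of Tet1 were listed in both libraries, of 110 and 76, and 0 of Alkbh1, of 25 and 82. For Tet3 the shared cytosines at 6 h were 147, or 27.5% of the first and 27.1% of the second library. For Ybx1 they were 299, or 82.1% and 87.7%. The plot of listing counts shows the same order of the genes.

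The 6 libraries listed between 1559828 and 2374392 cytosines each, at a median coverage of 324 to 480 reads, and the first 6 h library had both the longest list and the lowest median. The genes used as a check of depolarization moved with the labels: of 8 such genes 7 could be tested, and 7 were higher at both 2 h and 6 h than at 0 h. Fos, an immediate early gene, went from 24.1 and 27.6 reads per cytosine at 0 h to 4142 and 4089 at 2 h. All 10 neuronal markers were covered, with a summed level of 19253 to 23492 reads per cytosine over the libraries. That sum hides opposite moves: against 0 h, 5 of the markers were called higher and 2 lower at 2 h, and again at 6 h. Of all genes 19.7% were called higher and 21.8% lower at 2 h, and 32.0% and 32.3% at 6 h. Tubb3, the largest part of the sum, fell from 12380 and 11683 at 0 h to 5533 and 5704 at 6 h. No microglial or endothelial marker was covered well enough to be tested. Of the 6 microglial markers 3 were listed in at least 1 library, and of the 6 endothelial and mural markers 4. Csf1r, C1qa, P2ry12, Cldn5 and Flt1 were listed in no library. The progenitor markers summed to 1357 to 1820. The 6 astrocyte markers summed to between 5537 and 5743 reads per cytosine in the 0 h and 2 h libraries and to 4616 and 4345 in those of 6 h, and the 7 markers of the oligodendrocyte lineage to 2681 and 2878 at 0 h, 2089 and 2145 after 2 h and 3203 and 3216 after 6 h. The part of these cells in the changes given below was not tested.

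Coverage was compared through 100-nt exonic windows, because a cytosine that is fully converted in a library is not listed there. The level of a gene is the coverage per cytosine that this window model gives each library, scaled so that the median gene of 11574 does not change. Among the 6 genes Ybx1 was the most highly covered. It stood at 11362 and 11038 reads per cytosine in the 0 h libraries, 13589 and 14468 after 2 h and 14423 and 13327 after 6 h, or at the 99.8th to 99.9th percentile of the genes. Alyref was read at 509 and 450 per cytosine at 0 h, 632 and 584 after 2 h and 734 and 662 after 6 h. Ybx1 thus exceeded Alyref 19.7 to 24.8 times, depending on the library. The dioxygenases lay in the lower part of the range at 0 h, between the 9.82th percentile for Tet1 and the 27.4th for Tet3. At 0 h the order was Ybx1, Alyref, Tet3, Alkbh1, Tet2 and Tet1, and the neighbours in that order were apart in both libraries except Alkbh1 (84.7 and 89.1) and Tet2 (85.0 and 77.7), which overlapped. In bulk RNA, fewer cells that express a gene and less RNA per cell cannot be told apart.

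**Figure D2:**
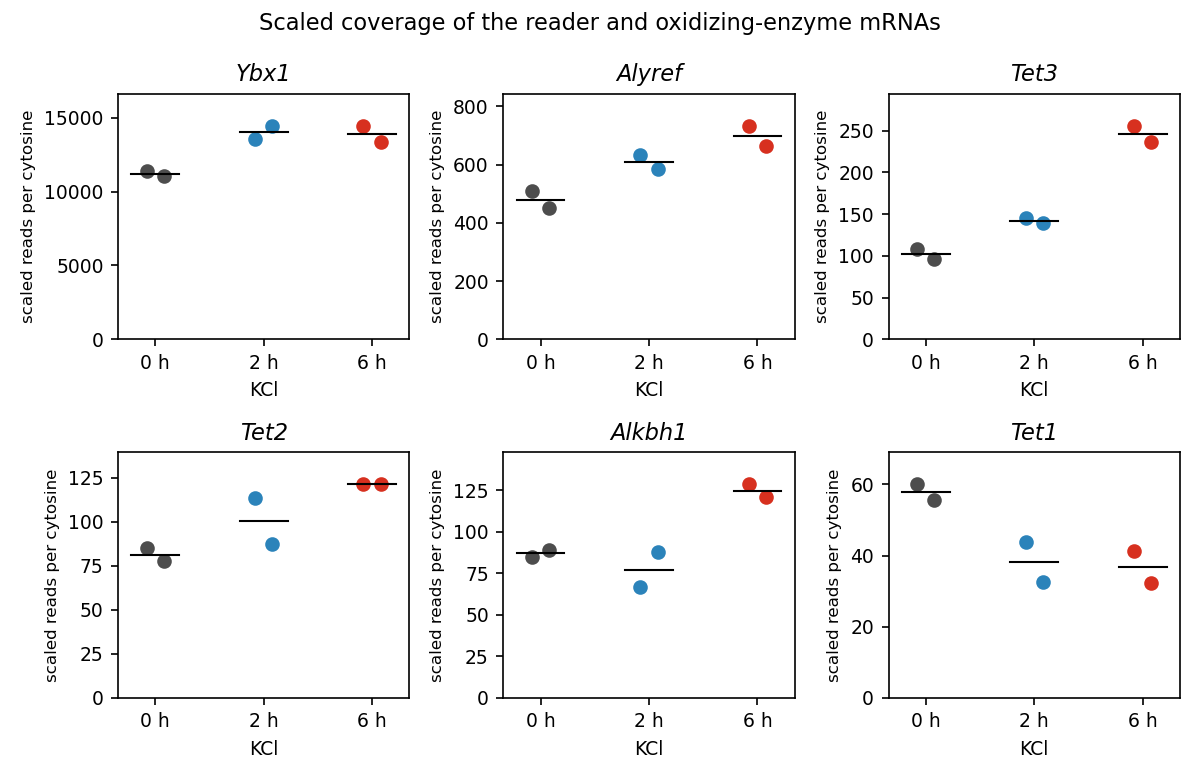
Scaled reads per cytosine of each gene by time in KCl. Points are the 2 libraries of a time point and bars their mean, and both 6 h libraries lie above both 0 h libraries for each gene except Tet1, where both lie below.

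Tet3 had the largest change of the 6 genes at 6 h. Its level was 109 and 96.0 reads per cytosine at 0 h, 146 and 139 after 2 h and 256 and 236 after 6 h, and the libraries of the 3 time points did not overlap. In log2 terms Tet3 rose by 0.48 at 2 h (SE 0.08, adjusted p = 0.0033) and by 1.27 at 6 h (95% confidence interval 1.07 to 1.46, adjusted p = 1.46e-05) relative to 0 h. Between 2 h and 6 h it rose by 0.79 (adjusted p = 0.000145). The calls at 2 h and between 2 h and 6 h were lost over all listed positions without windows (0.41, adjusted p = 0.593, and 1.11, adjusted p = 0.0864). At the single Tet3 cytosine that all 6 libraries list, no call was made and the change at 2 h turned to −0.16 (adjusted p = 0.729). With the libraries scaled on the deeper genes of the series, the change at 2 h was 0.27 and was still called (adjusted p = 0.0313). All p-values for coverage are from limma on the window model with Benjamini-Hochberg adjustment over the 11574 genes unless another tool or setting is named. Those over all listed positions are from limma on 10084 genes, and those at the single common Tet3 cytosine from edgeR on 4689 genes. These p-values measure the spread between these libraries, which the study calls biological replicates and the labels do not tie to separate cultures. The comparisons of 2 h and 6 h with 0 h share the 0 h libraries.

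The rise of Tet3 was spread along the transcript. Of the 122 exonic windows listed in at least 1 library, 23 were listed in all 6 libraries, and in all 23 both 6 h libraries lay above both 0 h and both 2 h libraries. At 2 h, both libraries lay above both 0 h libraries in 20 of the 23. The log2 difference of 6 h from 0 h ranged from 0.67 to 1.89 over the windows, from 0.67 to 1.49 in the 10 coding windows and from 1.04 to 1.89 in the 13 windows of the 3′ UTR. Windows share reads and libraries, so they describe the change and add no replicates.

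**Figure D3:**
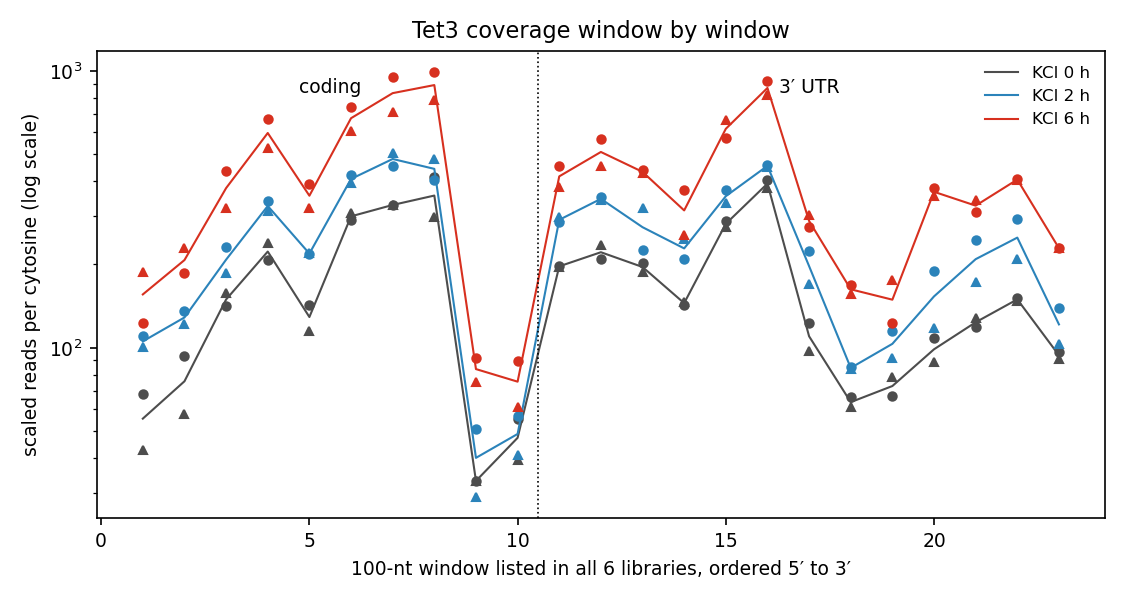
Scaled reads per cytosine (log axis) in the 23 exonic Tet3 windows that all 6 libraries list, ordered 5′ to 3′, with coding windows left of the dotted line. Circles are the first and triangles the second library of a time point and lines their mean, and both 6 h points lie above all 0 h and 2 h points in each window.

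Tet1 moved in the opposite direction. It was read at 60.1 and 55.6 per cytosine at 0 h, 43.7 and 32.6 after 2 h and 41.4 and 32.3 after 6 h, so that both later times lay below 0 h and overlapped each other. Its log2 change was −0.62 at 2 h (95% confidence interval −1.09 to −0.15, adjusted p = 0.0427) and −0.66 at 6 h (−1.13 to −0.19, adjusted p = 0.0215). Both calls for Tet1 rest on thin coverage. The change at 2 h lost its call without either 0 h library (adjusted p = 0.224 without the first and 0.147 without the second), without the second 2 h library (0.117) or without the second 6 h library (0.0564), and the change at 6 h without either 0 h library (0.111 and 0.095) or the second 6 h library (0.235). Over all the alternatives tried the call at 2 h was lost under 7 and kept under 6, among them lost with 200-nt windows (0.0556), and the call at 6 h was lost under 4 and kept under 9. Of the 59 exonic Tet1 windows listed in at least 1 library, 28 and 23 were listed at 0 h, 18 and 6 after 2 h and 16 in each 6 h library. None of them was listed in all 6 libraries, and the second 2 h library listed only 7 Tet1 cytosines.

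Tet2, the TET family member that lacks a CXXC DNA-binding domain of its own, was read at 85.0 and 77.7 per cytosine at 0 h, 114 and 87.7 after 2 h and 121 and 121 after 6 h. Both later times lay above 0 h in both libraries. The change passed the test at 6 h (log2 0.58, 95% confidence interval 0.27 to 0.89, adjusted p = 0.00623) and not at 2 h (0.30, −0.01 to 0.61, adjusted p = 0.113). The 6 h call was lost without the second 0 h library (adjusted p = 0.0559). It was also lost in the edgeR test of the 3 windows that all 6 libraries list, where the log2 change was 0.18 (adjusted p = 0.43), and over all listed positions, where the direction turned (−0.021, adjusted p = 0.969).

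As shares of the summed coverage of the 3 TET genes, Tet3 made up 42.9% and 41.9% at 0 h, 48.1% and 53.6% after 2 h and 61.1% and 60.5% after 6 h. The share of Tet1 went from 23.7% and 24.3% over 14.4% and 12.6% to 9.88% and 8.28%. That of Tet2 lay between 29.0% and 37.5% in all libraries. The ratio of Tet3 to Tet1 was 1.81 and 1.73 at 0 h and 6.19 and 7.31 at 6 h. Tet1 enters these shares and ratios with thin coverage and no window that all 6 libraries list.

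Alkbh1 was read at 84.7 and 89.1 per cytosine at 0 h, 66.5 and 87.7 after 2 h and 129 and 121 after 6 h. The 2 h libraries overlapped those of 0 h (log2 −0.18, 95% confidence interval −0.55 to 0.18, adjusted p = 0.375). The 6 h libraries lay above all others, and the difference passed the test against 2 h (0.70, 0.34 to 1.07, adjusted p = 0.00525) and against 0 h (0.52, 0.16 to 0.88, adjusted p = 0.0196). The call against 0 h was lost when either 0 h library or either 6 h library was left out, with adjusted p-values of 0.0577 to 0.121. It was also lost when the libraries were scaled on the deeper genes of the common-cytosine comparison (0.37, adjusted p = 0.0619).

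Both readers were higher after KCl. Alyref rose by 0.34 at 2 h (95% confidence interval 0.13 to 0.56, adjusted p = 0.0192) and by 0.54 at 6 h (0.33 to 0.75, adjusted p = 0.00133), and the libraries of its 3 time points did not overlap. The further step of 0.20 from 2 h to 6 h did not pass the test (−0.01 to 0.41, adjusted p = 0.0901), while it passed under 5 alternatives (adjusted p of 0.0284 to 0.0444) and turned to −0.27 over all listed positions (adjusted p = 0.346). Of the 9 Alyref windows that all 6 libraries list, 8 had both 2 h and 8 had both 6 h libraries above both 0 h libraries. The call at 2 h was lost under 6 alternatives, among them without the second 0 h library (0.27, adjusted p = 0.115) and with the scaling on deeper genes (0.14, adjusted p = 0.25), and the call at 6 h under 1, over all listed positions (0.17, adjusted p = 0.561).

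Ybx1 was covered deeply enough for the same 264 cytosines to be compared in all libraries. With edgeR's quasi-likelihood test on these common cytosines, 1 of the 6 genes could be tested, and Ybx1 rose by 0.17 at 2 h (SE 0.05, adjusted p = 0.0466) and by 0.16 at 6 h (95% confidence interval 0.04 to 0.28, adjusted p = 0.0273). In that fit 28.4% of 2600 genes were called at 2 h (13.7% higher and 14.7% lower) and 62.6% at 6 h (29.6% and 33.0%). Between 2 h and 6 h, where 52.3% were called (24.4% and 27.9%), Ybx1 differed by −0.01 (adjusted p = 0.911). With the window model its change was larger, at 0.32 (0.18 to 0.47, adjusted p = 0.00525) and 0.31 (0.16 to 0.45, adjusted p = 0.00352). With the window model scaled on the genes of the common-cytosine comparison, which are the deeper ones, the change at 2 h was 0.12 and did not pass the test (adjusted p = 0.125), while that at 6 h was 0.16 (adjusted p = 0.0416). The common-cytosine call at 2 h was lost under 10 of the alternatives tried and kept under 7. It was lost without either 0 h library (adjusted p = 0.14 and 0.161), the second 2 h library (0.0833) or either 6 h library (0.0818 and 0.0655). The call at 6 h was lost without either 0 h library (0.0812 and 0.105) or the first 6 h library (0.174). In 3 windows of the Ybx1 3′ UTR the median log2 change was 0.57 at 2 h and 0.51 at 6 h, against 0.30 and 0.25 in 14 coding windows, a difference that was not tested.

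Counted over the 6 genes, 3 were higher and 1 lower at 2 h, where 41.5% of all genes tested were called, 19.7% higher and 21.8% lower. At 6 h against 0 h, 5 were higher and 1 lower, where 64.3% were called, 32.0% higher and 32.3% lower. At 6 h against 2 h, 2 were higher and 0 lower, where 63.2% were called, 32.4% higher and 30.8% lower. By the libraries alone, 4 of the 6 genes had both 2 h libraries above both 0 h libraries and 1 had both below, against 34.9% and 36.0% of all genes. At 6 h against 0 h this held for 5 and 1, against 42.9% and 42.4%, and at 6 h against 2 h for 4 and 0, against 41.2% and 40.2%. The median log2 change of the 6 genes was 0.31, 0.53 and 0.24 in the 3 comparisons, and that of all genes lay within 0.01 of 0 by the scaling. Scaling on the deeper genes moved the median of all genes to −0.21, −0.14 and 0.06. With it, 988 genes were higher and 4368 lower at 2 h, in place of 2284 and 2524, while at 6 h against 0 h the counts were 2833 and 4655 in place of 3703 and 3735, and at 6 h against 2 h 4079 and 3222 in place of 3750 and 3561. Of the 6 genes, that scaling left 1 higher and 1 lower at 2 h, 4 higher and 1 lower at 6 h against 0 h, and 3 higher and 0 lower at 6 h against 2 h.

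**Figure D4:**
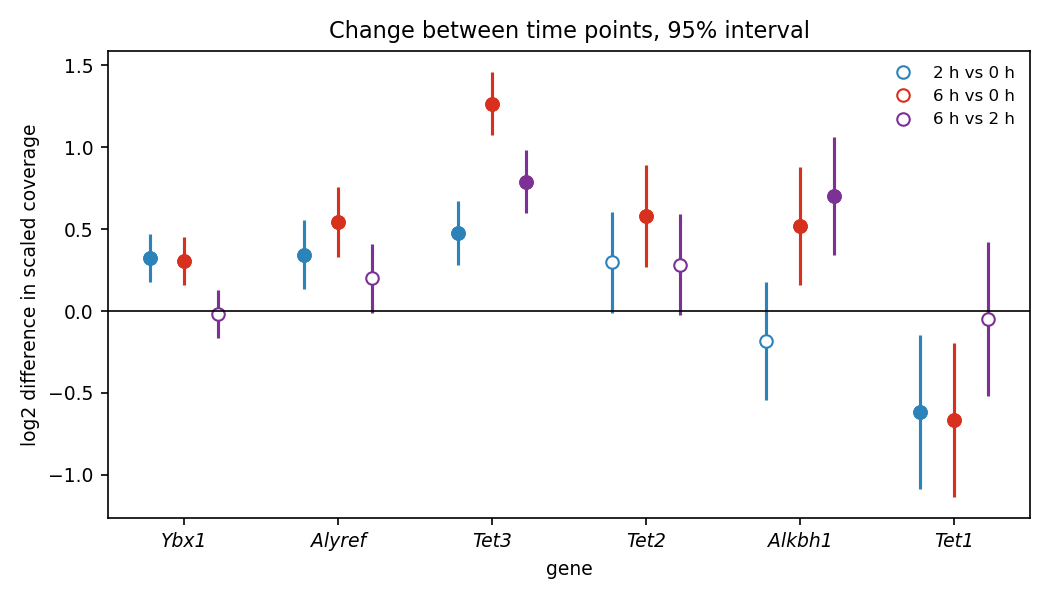
Log2 change of coverage for each gene in the 3 comparisons, with 95% confidence intervals from limma on the window model. Filled points passed the adjusted test and open points did not: Tet3 lies above 0 in each comparison, and Tet1 below 0 at 2 h and 6 h against 0 h. Among the intervals that include 0 are those of Ybx1, Tet1 and Alyref between 2 h and 6 h and those of Tet2 and Alkbh1 at 2 h.

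The methylation level of a cytosine, the unconverted share of its reads, was then taken for the same genes. A filter asked for 20 or more reads, of which 10% or more and no fewer than 6 were unconverted, in both replicates of a time point. With it 0 of the 3275 cytosines passed, against 0.0589% of all listed cytosines of the series, also with a coverage minimum of 10 or 50 and with a level of at least 20%. In single libraries 23 passed, of which 21 were Ybx1 cytosines of the first 6 h library. No cytosine of the 6 genes therefore entered the test of levels between time points. On the sum of the replicates 15 cytosines passed, all of them in the last bases of the Ybx1 3′ UTR.

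The end of the Ybx1 transcript was defined by coverage. It is the exonic stretch 3′ of the last cytosine with at least 1000 reads in a library, so its thin coverage follows from this cut. It has 29 listed cytosines (chr4:119278006-119278207), and 2 of them are shown with their neighbours, 5′ to 3′ on the transcript strand and with the cytosine in capitals, as examples.
Ybx1, chr4:119278146: aaaaaaaggcCtggtttttct
Ybx1, chr4:119278127: ctcaatacacCtttaacggtt
The first had 8 unconverted of 33 reads in the first 6 h library (24.2%) and 6 of 22 in the second 0 h library (27.3%), but 2 of 16, 2 of 28 and 1 of 25 in the other libraries that list it. The second had 8 of 38 in the first 6 h library (21.1%), 5 of 30 in the second 0 h library (16.7%), and 1 of 17 and 2 of 37 in the others. Over the listed cytosines of this end the control libraries had 7.33% and 15.0% of reads unconverted, the second 2 h library 6.94%, and the 6 h libraries 19.9% and 11.8%, while the first 2 h library listed 0 of the 29. Median coverage there was 16 to 34 reads, against 12295 to 19783 over the other exonic cytosines, where the share was 0.0748% to 0.105%. A listed cytosine has at least 1 unconverted read, so part of this gap is set by depth: at 16 reads the lowest level that can be listed is 6.25%, which was the median level of this end in the first 0 h library. Listed intronic Ybx1 cytosines had 3.31% at a median of 18 reads in the second 0 h library and 5.04% at 13 reads in the second 2 h library. The difference between these stretches was not tested. Both the first 6 h library and the second 0 h library had high levels at this end, so the groups overlapped.

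**Figure D5:**
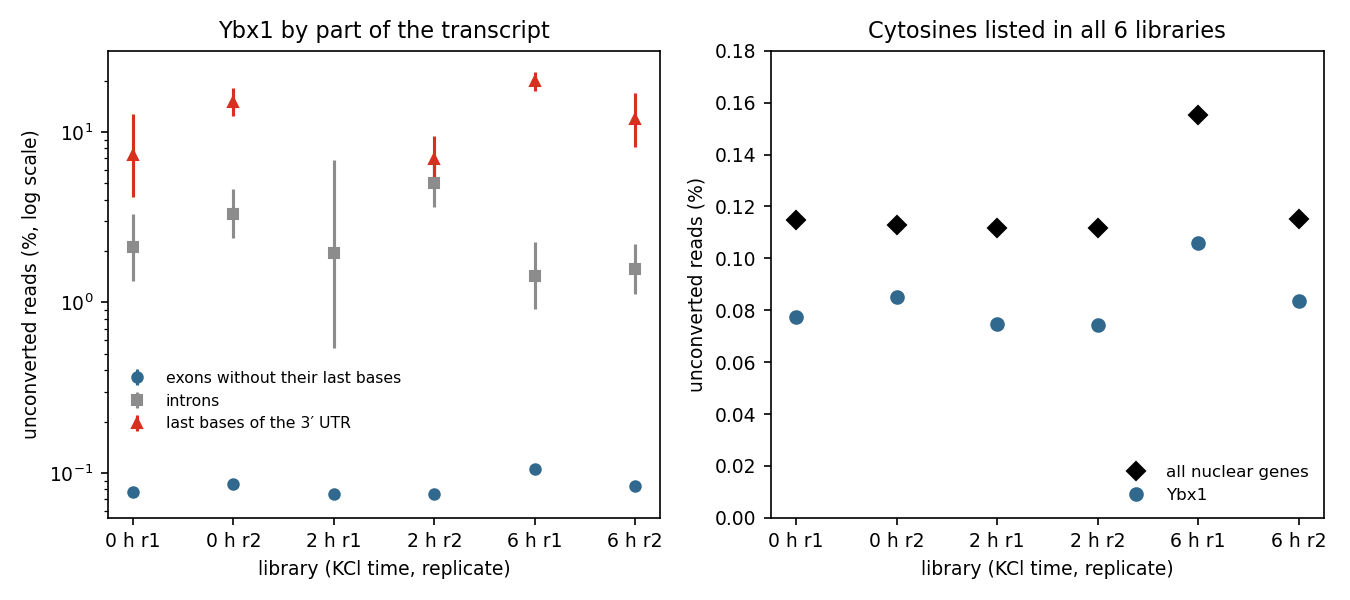
Left, unconverted share of reads (%, log axis) over the listed Ybx1 cytosines of 3 stretches of the gene in each library, with 95% Wilson intervals for counting error. Right, the share (%, linear axis) over cytosines listed in all 6 libraries, for Ybx1 and all nuclear genes. The end of the 3′ UTR lies between 6.94% and 19.9% in the 5 libraries that list it, and the remaining exons near 0.1% in all 6.

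Over the 264 common Ybx1 cytosines 0.0773% and 0.0853% of the reads were unconverted in the controls, 0.0746% and 0.0744% after 2 h of KCl, and 0.106% and 0.0837% after 6 h. The share over the common cytosines of all nuclear genes was 0.112% to 0.155%, and highest in the first 6 h library too. Ybx1 stood at 0.666 to 0.756 times that share. The all-gene share includes cytosines with a level of at least 10%, of which the 264 hold none. With those left out the all-gene share was 0.103% to 0.146%. Ybx1 was also read more deeply than nearly all genes, which lowers the least level that can be listed. All of these shares are upper values, since only cytosines with an unconverted read are listed. The cytosines listed in all 6 libraries with the highest mean level of each gene are shown with 10 bases on either side, the cytosine in capitals. They are shown because they can be compared across all libraries.
Ybx1, 5′ UTR, exon 1, chr4:119294414: ccatcacaccCgggaggagcc
Ybx1, coding, exon 1, chr4:119294239: ggcctcacatCggcggcgccc
Ybx1, coding, exon 7, chr4:119279120: gacccaaggtCagcagccacc
Alyref, coding, exon 4, chr11:120595314: ccataggccgCcctatgaaca
Alyref, coding, exon 3, chr11:120596045: gaatttgggaCattgaaaaaa
Alyref, coding, exon 3, chr11:120595929: caatggtgtcCctttggatgg
Tet3, coding, exon 12, chr6:83368814: gggatgggaaCcggggatttc
The Ybx1 cytosines reached 0.585%, 0.392% and 0.324% in their highest library and the Alyref cytosines 0.395%, 0.217% and 0.220%.

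The Tet3 cytosine was the single one of its 1610 that all 6 libraries listed. Its unconverted reads were 4 of 62 and 1 of 36 at 0 h, 4 of 58 and 3 of 35 at 2 h, and 10 of 78 and 3 of 65 at 6 h. The levels were thus 6.45% and 2.78%, 6.90% and 8.57%, and 12.8% and 4.62%, so that the 6 h levels overlapped those of 0 h and of 2 h, while both 2 h levels lay above both 0 h levels. The Tet3 level was not tested. In Tet2 a 3′ UTR cytosine at chr3:133464202 passed the filter in the second 2 h library, with 6 unconverted of 51 reads (11.8%, 95% Wilson interval 5.51% to 23.4%), and is shown for that reason.
Tet2, 3′ UTR, chr3:133464202: aaactgctggCcaacaggagt
Such intervals cover counting error only, since reads without molecular identifiers are not independent molecules.

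Levels of the thinly covered genes have to be read with the listing in mind. In 5 of the 6 libraries 85.7% to 94.7% of the listed Tet1 cytosines had exactly 1 unconverted read. In the first 6 h library 39.1% did, at a median coverage of 16 reads, and 44 of 110 Tet1 cytosines there had a level of at least 10%, with at most 4 unconverted reads each. For Tet3 the share with exactly 1 unconverted read was 79.7% to 84.2%, and for Ybx1 8.13% to 18.2%. In the second 2 h library 26 Tet3 cytosines had a level of at least 10%, the highest at 61.5%. The mean unconverted share over all listed cytosines was 4.28% for Tet1, 1.46% for Alkbh1, 1.26% for Tet2 and 0.877% for Tet3. These too are upper values, since 1 unconverted read is the least a listed cytosine can have.

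The genes that write m5C or work beside the 6 genes were taken from lists and counted in the same window model, whose shares of called genes are those given above. Of the m5C methyltransferases 5 of 8 could be tested: 1 was higher and 1 lower at 2 h, and 2 were higher and 1 lower at 6 h against 0 h. Nop2, a methyltransferase of ribosomal RNA, stood at 335 and 325 reads per cytosine at 0 h, 259.9 and 270.1 after 2 h and 428 and 412 after 6 h, that is a log2 change of −0.32 and 0.35 against 0 h. Nsun6, which methylates tRNA and some mRNA, fell by 0.96 on the log2 scale at 6 h (adjusted p = 0.00204). Nsun2, the main mRNA methyltransferase, was 0.19 higher at 2 h (adjusted p = 0.0282), a change that turned to −0.01 with the scaling on deeper genes. Of the paralogs of the readers and other m5C-binding proteins 4 of 7 could be tested, with 1 higher and 0 lower at 2 h and 2 higher and 1 lower at 6 h against 0 h: Srsf2, a splicing factor, rose by 0.95, and Ybx3, a cold-shock paralog of Ybx1, fell by 0.52. Fmr1, which encodes the RNA-binding protein lost in fragile X syndrome, was the other gene called higher, by 0.67 (adjusted p = 0.0321), a call lost with the scaling on deeper genes (0.52, adjusted p = 0.0916).

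Of the partners of ALYREF in mRNA export 13 of 15 could be tested, with 4 higher and 1 lower at 2 h and 6 higher and 2 lower at 6 h, and a median log2 change of 0.17 and 0.20. Nxf1, the export receptor itself, stood at 187 and 189 reads per cytosine at 0 h, 326 and 346 after 2 h and 334 and 332 after 6 h. It rose by 0.84 and 0.82 (adjusted p = 0.000103 and 3.52e-05). Fyttd1, an export adaptor that acts beside ALYREF, rose by 1.21 at 6 h, and Thoc5, a THO subunit, fell by 0.80. With the scaling on deeper genes the counts were 2 higher and 3 lower at 2 h and 4 higher and 3 lower at 6 h.

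Of the partners of YBX1 in mRNPs 11 of 12 could be tested, with 4 higher and 3 lower at 2 h and 8 higher and 0 lower at 6 h against 0 h. Their median log2 change was −0.04 at 2 h and 0.51 at 6 h. Pabpc1, the poly(A)-binding protein, rose by 0.63 at 2 h, and the helicase Dhx9 by 0.61 at 2 h and 0.68 at 6 h. Igf2bp2, an mRNA-binding protein of developing tissue, was lower at 2 h by −0.84 and higher at 6 h than at 2 h by 1.56, at only 19.7 to 62.2 reads per cytosine. G3bp1, a stress granule protein, fell by 0.18 at 2 h and was 0.69 higher at 6 h than at 2 h. With the scaling on deeper genes 2 were higher and 5 lower at 2 h, and 7 higher and 0 lower at 6 h.

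Of the 8 other AlkB genes, all of which could be tested, 1 was higher and 2 were lower at 2 h, and 1 was higher and 5 were lower at 6 h against 0 h, with a median of −0.37 at 6 h. Alkbh5, which removes N6-methyladenosine from mRNA, stood at 155 and 169 reads per cytosine at 0 h, 221 and 232 after 2 h and 308 and 300.0 after 6 h, a rise by 0.91 at 6 h (adjusted p = 3.64e-05). Alkbh2 and Alkbh3, which repair alkylated nucleic acid, fell by 1.16 and 0.84. Whether Alkbh1 differed from its relatives was not tested.

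Of the TET partners and base excision genes 14 of 18 could be tested, with 4 higher and 4 lower at 2 h and 7 higher and 6 lower at 6 h against 0 h, and 4 higher and 6 lower at 6 h with the scaling on deeper genes. Gadd45b, an activity-induced gene linked to DNA demethylation, stood at 29.6 and 34.9 reads per cytosine at 0 h, 242 and 299.8 after 2 h and 94.9 and 67.6 after 6 h. It rose by 3.07 at 2 h and by 1.32 at 6 h, and Gadd45g by 3.06 and 1.57. Both were lower at 6 h than at 2 h, by −1.75 and −1.49, while Tet3 was higher. Hcfc1, which works with OGT, rose by 1.16 at 6 h, and Uhrf1, which binds hemimethylated DNA, fell by 1.21 at 2 h and 1.17 at 6 h. Of the genes that make or remove 2-oxoglutarate, the cosubstrate of TET and AlkB enzymes, 13 of 13 could be tested. At 2 h 4 were higher and 0 lower, and at 6 h 1 was higher and 7 lower, but with the scaling on deeper genes 0 were higher and 4 lower at 2 h. Idh3a, a subunit of mitochondrial isocitrate dehydrogenase, rose by 0.29 at 2 h, a call lost with that scaling (0.082, adjusted p = 0.243), and by 0.49 at 6 h, and Sdhb, a succinate dehydrogenase subunit, fell by 0.45 at 6 h. At 6 h against 2 h the counts of higher and lower genes were 2 and 1 for the methyltransferases, 1 and 1 for the paralogs and other readers, 3 and 5 for the export partners, 6 and 1 for the YBX1 partners, 2 and 4 for the AlkB genes, 3 and 4 for the TET partners and 3 and 8 for the 2-oxoglutarate genes.

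As a description over the 6 libraries, which share their time points, the genes whose log2 levels followed 5 of the 6 most closely among 11573 others were Arhgef12 and Mfhas1 for Tet3 (Pearson's r of 0.999 each), Hspa13 and Fbxo30 for Tet2 (0.998 and 0.997), and Gm8281 and Ppp4r4 for Tet1 (0.984 and 0.983). For Alkbh1 they were Cnot11 and Tbkbp1 (0.997 and 0.995) and for Ybx1 Cdc42ep4 and Fam104a (0.995 and 0.992).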

How the data were processed

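RNA bisulfite sequencing was read from 6 lists, 1 per library (KCl for 0 h, 2 h or 6 h, in duplicate). Per the study's methods, RNA was converted with a bisulfite kit, sequenced as stranded libraries, trimmed, aligned with meRanRh and called with meRanCall of meRanTK; the labels give the build mm10 and R 4.1.1. The deposited values are counts of reads, of unconverted C and of mutated bases per position, and the deposited level is a fraction that the authors' caller made from these counts. Further filters of the study (on reads with several unconverted C, signal to noise and structure) were not repeated.

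Reference cytosines with state M and a symbol of one of the 6 genes were kept. The genes and lists were chosen with earlier results of these data known. The designed fit was edgeR 4.0.16 (quasi-likelihood, TMM) in R 4.3.3 on coverage summed over cytosines listed in all 6 libraries (genes with at least 5 such cytosines and a mean of at least 20 reads). It reaches Ybx1 only, so a window model was added after seeing the data: exonic windows of 100 nt listed in at least 2 libraries, at least 3 per gene with a mean of at least 20 reads, coverage as window rate times library factor (quasi-Poisson), with unlisted windows left out of the fit, then limma 3.58.1 with a trend and Benjamini-Hochberg adjustment at 0.05. The gene-level tests of both were run on simulated complete counts. The simulation did not include the window step or unlisted windows, so it does not test these. DESeq2 1.42.0 was an alternative. A read counts at each cytosine it covers, so the spread between libraries sets the error. Levels were compared with Fisher's exact test where cytosines passed the filter. Exon and UTR annotations are GENCODE M21, and sequences are from RefSeq's GRCm38.p6.

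Named were the 6 genes; of each list, up to 3 called genes in each direction with the largest change; the 3 cytosines per gene with the highest mean level among those listed in all 6 libraries with at least 20 reads; and the 2 closest genes by Pearson's r, which for Alyref are not reported here. The shown runs, the Ybx1 end and the Tet2 cytosine were chosen after their values were seen. The fits with the replicate number as a block, other scalings, windows, filters and each library left out were tried as alternatives.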

Additional observations from a re-analysis of the deposited data

Results flagged for a closer look

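For 2 of the 6 genes the change at 6 h differed from that at 2 h by a test of the difference itself (limma on the window model, Benjamini-Hochberg over 11574 genes). Tet3 was 0.79 higher at 6 h than at 2 h on the log2 scale (adjusted p = 0.000145), with 256 and 236 reads per cytosine against 146 and 139. Alkbh1 was 0.70 higher (adjusted p = 0.00525), with 129 and 121 against 66.5 and 87.7. Of all genes 63.2% were called in that comparison. Leaving out any 1 library gave 0.73 to 0.85 for Tet3 and 0.47 to 0.91 for Alkbh1. Over all listed positions without windows both calls were lost (Tet3 1.11, adjusted p = 0.0864, and Alkbh1 0.32, adjusted p = 0.624), and that of Tet3 also at its single common cytosine (0.70, adjusted p = 0.0836).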

How the results depend on the processing

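Depth limits the thinly covered genes most: only listed cytosines carry coverage, and a low-coverage window is listed when it happens to hold an unconverted read. In the common-cytosine comparison 739, 1627 and 1360 genes were called (2 h against 0 h, 6 h against 0 h, 6 h against 2 h). With a minimum of 1 common position they were 1333, 2891 and 2576, in the window model 4808, 7438 and 7311, with edgeR on common windows 3265, 5352 and 5186, and with DESeq2 on these 3642, 5540 and 5351. Over all listed positions they were 604, 2713 and 2292. Leaving out each library gave 292 to 883, 1185 to 1846 and 833 to 1515, with the lowest at 2 h without the second 0 h library and at 6 h against 2 h without the second 6 h library. Cytosines called by Fisher's exact test over all genes were 267, 205 and 343; limma on the log2 ratio of unconverted to converted reads called 0, 0 and 0 (211, 88 and 155 at an unadjusted p under 0.05), and leaving out each library gave 168 to 260, 147 to 509 and 224 to 591. On summed replicates 15 cytosines of the 6 genes passed the filter in place of 0. The unconverted share of Alyref was 0.116% over 4 common cytosines, 0.184% over all listed ones, and 0.184% over those with levels under 10%.

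Some signs turned, also for calls of the window model (Tet2 at 6 h, 0.58, and Tet3 at 2 h, 0.48). Alyref was −0.27 at 6 h against 2 h over all listed positions, and Tet2 −0.021 at 6 h against 0 h and −0.031 against 2 h; Tet2 at 2 h was −0.077 with edgeR and −0.071 with DESeq2 on common windows. Tet3 at 2 h was −0.16 at its single common cytosine. Alkbh1 at 2 h ranged from −0.35 to 0.038 without each library, and Tet1 at 6 h against 2 h from −0.26 to 0.32, with 0.0089 under the scaling on deeper genes. Ybx1 at 6 h against 2 h ranged from −0.072 to 0.038 in the window model and from −0.050 to 0.037 over common cytosines without each library; it was 0.039 with the scaling on deeper genes, 0.0050 with TMM factors, 0.0051 with intronic windows, 0.0031 with DESeq2 on common windows, 0.00052 with 1 common position, 0.012 with DESeq2 and 0.0072 over cytosines under 1%. Nsun2 at 2 h was −0.013 with the scaling on deeper genes and −0.0055 with TMM factors.

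The replicate numbers gave correlations of 0.45, −0.25 and −0.27 between same-numbered deviations, so they were not taken to pair the libraries. With the replicate number as a block 696, 1614 and 1331 genes were called, and 264, 251 and 486 cytosines; with the 6 h numbers crossed, 828, 1735 and 1479 genes.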
